A study of Mus musculus with 8 samples.

Results

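The mouse Hox genes were examined for histone H3 lysine 27 acetylation (H3K27ac) in P5424 cells. The Hox genes are the homeobox genes that stand side by side in 4 clusters, HoxA to HoxD. They were chosen by name and cluster position, not by any measured value, though with earlier results of these data known. Of the 39 Hox genes of the annotation, 38 are described, with 1 gene not analysed here. P5424 is a mouse T cell precursor line. H3K27ac ChIP-seq was done in wt P5424 cells and in ΔIkE120 P5424 cells, a clone in which the IkE120 enhancer upstream of Ikzf1 was deleted on both alleles by CRISPR/Cas9. Each genotype had 1 library, and whether the cells of these libraries had been stimulated is not given in the labels. The series holds 8 libraries, of which these 2 measured H3K27ac.

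Hox proteins are transcription factors that set the identity of segments along the body axis, and the order of the genes on the chromosome follows the order of their expression from head to tail. In cells that do not use them, the clusters are classic targets of the Polycomb complexes, which methylate H3K27, and a given lysine cannot carry both the methyl and the acetyl group. Acetylation of H3K27 marks active promoters and enhancers, and in blood cells several HoxA and HoxB genes are active in stem and early progenitor cells and fall silent as the cells mature.

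The data are lists of called peaks, so a gene or region with no peak had no enrichment past the threshold of the authors' peak caller, and low acetylation under it cannot be seen. The wt list held 34553 peaks over 25189952 bases and the ΔIkE120 list 29902 peaks over 22143580 bases, a ratio of ΔIkE120 to wt covered bases of 0.879. The depth of the libraries is unknown. With 1 library per genotype, differences between the lists have no replicate check and were not tested. The label of the cells was checked against marker genes. A peak at the start (within 1 kb of the 5′ end of the gene) stood at 45.0% of all 20915 protein-coding genes with a placed start in wt and at 44.4% in ΔIkE120 cells. Among 13 T cell precursor markers, 12 had a peak at the start in wt and 11 in ΔIkE120 cells. They included Cd3e, a chain of the T cell receptor complex, with 1506 bases of its start window covered in wt and 1540 in ΔIkE120 cells, and Lck, the kinase that signals from that receptor, with 1679 and 1762 bases. Il2ra had no peak at its start in either list, and Cd2 had a peak in wt alone, over 123 bases. Of 6 B cell markers, 1 (Ebf1) had a peak at the start in both lists. Of 6 myeloid markers, 1 (Mpo) had a peak in wt and 0 in ΔIkE120 cells. Of 3 erythroid markers that could be placed, 2 (Klf1 and Epor) had a peak in both lists, a share (66.7%) above that of all genes, and Gata1 had none. None of 5 embryonic stem cell markers had one, and of 6 fibroblast markers 1 (Pdgfrb) did in both lists.

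No Hox gene start carried a called H3K27ac peak in either genotype. The count was 0 of 38 in wt and 0 of 38 in ΔIkE120 cells, and no base of any of the 38 start windows was covered. The share over all protein-coding genes was 45.0% in wt and 44.4% in ΔIkE120 cells. A peak in wt alone stood at 1.12% of these starts and a peak in ΔIkE120 cells alone at 0.488%, against 0 Hox genes in either direction. The absence covered genes of every position in the clusters: 7 anterior genes (paralogue groups 1 to 3), 15 central genes (groups 4 to 8) and 16 posterior genes (groups 9 to 13). It included Hoxa9, which is active in blood progenitors and in many leukaemias, Hoxb4, known for expanding blood stem cells, Hoxa3, needed for the thymus to form, and Hoxa13 and Hoxd13, which pattern the digits. Taking the gene bodies, 1 of 38 Hox genes, Hoxd3, was overlapped by a peak, in both lists. A peak overlapped 54.9% of all protein-coding genes in wt and 53.3% in ΔIkE120 cells. Gene length enters this share.

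**Figure D1:**
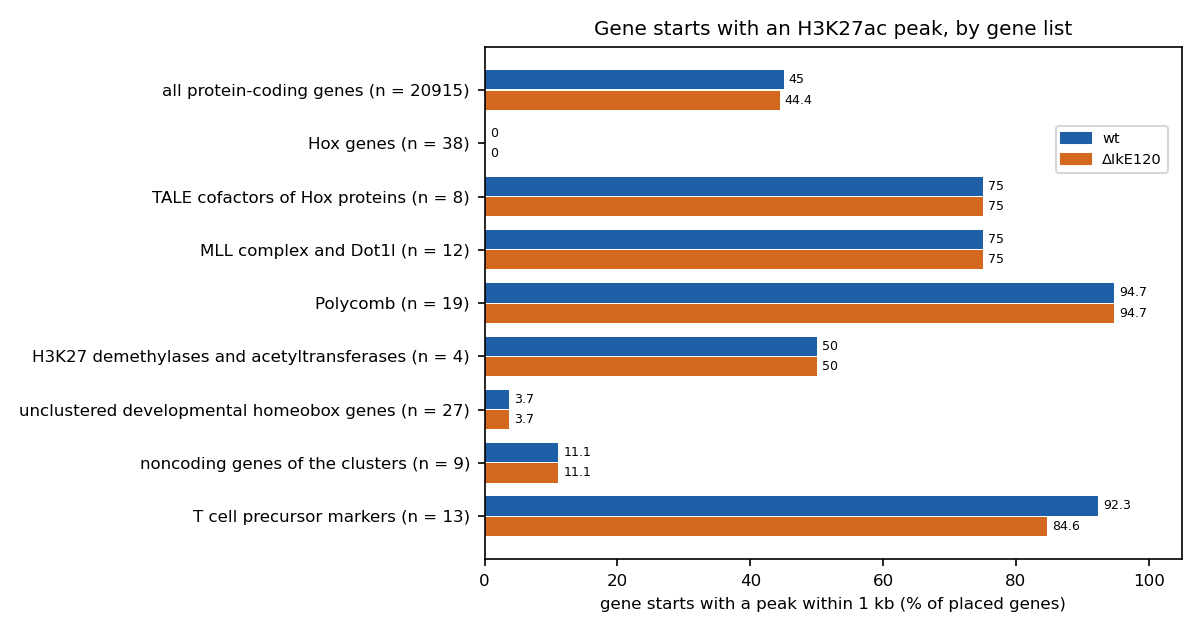
Share of gene starts with an H3K27ac peak within 1 kb, in percent of the placed genes of each list, for wt (blue) and ΔIkE120 cells (orange), 1 library each. The 38 Hox genes are at 0 in both, all protein-coding genes at 45.0% and 44.4%, and the T cell precursor markers at 92.3% and 84.6%.

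Each cluster was then followed over its whole length, from its outermost listed genes to 50 kb beyond them. Together the 4 windows spanned 885047 bases and held 3 peaks in each list. Peaks covered 1811 bases in wt (0.205%) and 2465 in ΔIkE120 cells (0.279%), where the whole lists covered 0.959% and 0.843% of the chromosomes up to their last peak. The ratio of ΔIkE120 to wt covered bases over the 4 windows was 1.36. It rested on these few peaks. In tiles of 10 kb, 3 of 90 tiles were touched by a peak in each list. The share of such tiles over the whole chromosomes was not counted. In peaks per Mb, the windows had 3.39 in each list, and the whole lists 13.2 in wt and 11.4 in ΔIkE120 cells. All 6 peaks were below the median −log10 q-value of their list, which was 4.12 in wt and 4.47 in ΔIkE120 cells.

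**Figure D2:**
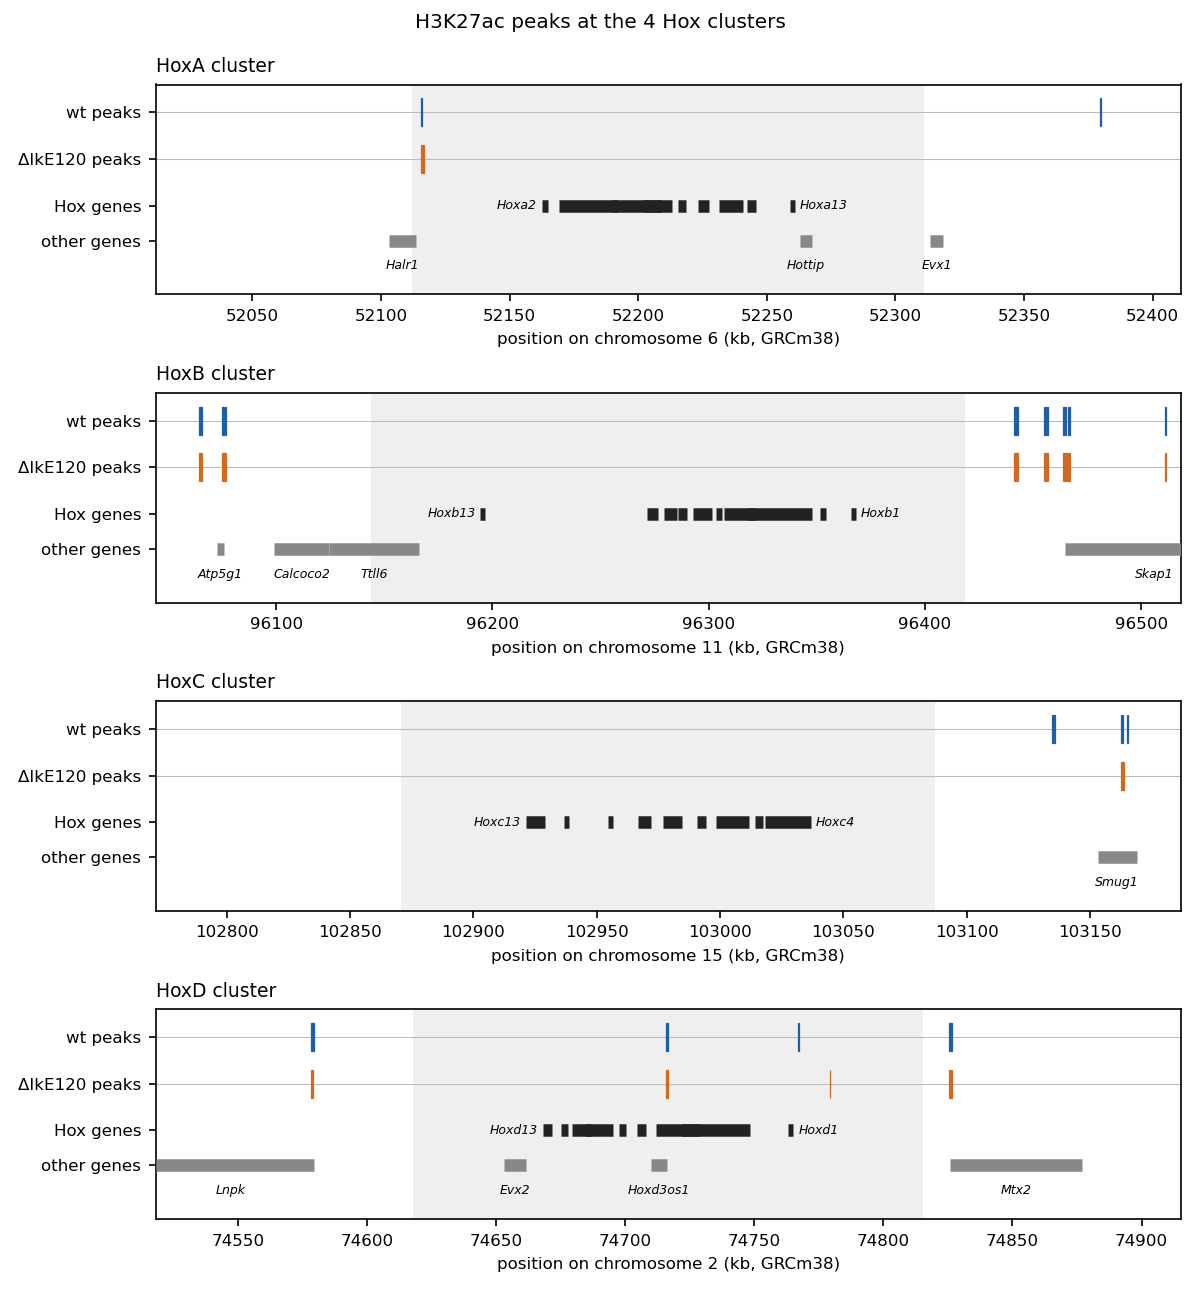
Maps of the 4 Hox clusters on GRCm38, with position in kb on the horizontal axis. Coloured boxes are H3K27ac peaks of wt (blue) and ΔIkE120 cells (orange), drawn to scale with a thin outline, black boxes the listed Hox genes (the outermost named), grey boxes neighbouring genes, and the shaded area the cluster with 50 kb either side. The HoxB and HoxC areas hold 0 peaks, and the HoxA area 1 peak per list, outside the genes.

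HoxB and HoxC were free of peaks. The 10 HoxB genes lie over 174 kb at chr11:96194316-96368254, from Hoxb13, active in the prostate, to Hoxb1, active in a single segment of the hindbrain. The window around them held 0 peaks in both lists. The interval without a peak ran from 96076588 to 96441190 in wt, 365 kb, and from 96076574 to 96441154 in ΔIkE120 cells, also 365 kb. On the Hoxb13 side it ended at a peak of 439 bases in wt and 482 bases in ΔIkE120 cells next to the start of Atp5g1, a subunit of ATP synthase. On the Hoxb1 side it ended 72.9 kb from the cluster in both lists, at the outermost of several peaks before the start of Skap1, which encodes an adaptor of T cell receptor signalling. The peak over the Skap1 start had a −log10 q-value of 8.43 in wt and 11.15 in ΔIkE120 cells. In both lists it also lay over the start of the noncoding gene Gm11529. An acetylated T cell gene and a cluster with no called peak were thus neighbours, and the outermost Skap1 side peak began at 96441190 in wt and 96441154 in ΔIkE120 cells.

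The 9 HoxC genes lie over 116 kb at chr15:102921131-103036856, from Hoxc13, active in hair follicles, to Hoxc4. This window too held 0 peaks in both lists. The peak-free interval was 413 kb in wt, from 102722095 to 103134843, and 441 kb in ΔIkE120 cells, from 102722112 to 103162845. On the Hoxc13 side it began at a peak just beside the start of Calcoco1 in both lists. On the Hoxc4 side the wt interval ended at a peak of 845 bases in the noncoding gene D930007P13Rik, with a −log10 q-value of 1.71, that had no counterpart in ΔIkE120 cells. With the same number of peaks taken from each list this peak dropped out, and the interval was 441 kb in both. The ΔIkE120 interval ended inside Smug1, a DNA repair gene, where wt cells had a peak as well (459 bases in wt, 465 in ΔIkE120 cells).

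The 10 listed HoxA genes lie over 98.5 kb at chr6:52162417-52260880, and no peak fell on or between them. Each list had 1 peak in the window, in the flank on the Hoxa2 side. It was at chr6:52115411-52115853 in wt, 443 bases with a fold enrichment of 3.28 and a −log10 q-value of 3.95. In ΔIkE120 cells it was at chr6:52115497-52116712, 1216 bases with a fold enrichment of 2.85 and a −log10 q-value of 2.69. No annotated gene was overlapped. The nearest placed start was that of the noncoding gene Halr1, 12462 bases away in wt and 12548 in ΔIkE120 cells, and the nearest listed Hox gene start that of Hoxa2, a gene of the hindbrain and branchial arches, 49.0 and 48.1 kb away. The ΔIkE120 peak was 2.74 times as long as the wt peak, with a lower enrichment. Among the 25721 wt peaks overlapped in the ΔIkE120 list, 6.40% were met by at least 2 times their own length, and the median ratio of lengths was 0.974 (quartiles 0.820 and 1.15).

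Beyond Hoxa13 the lists differed at the nearest wt peak, which was weak. In wt cells a peak of 299 bases stood at chr6:52379603-52379901, 119 kb from the cluster, at percentile 22.5 of the list by −log10 q-value, and no peak of the ΔIkE120 list overlapped it. The peak-free interval over the HoxA genes was accordingly 264 kb in wt and 523 kb in ΔIkE120 cells, where the next peak began at 52639267. Both lengths were the same with lists of equal size. Over the whole lists, 25.6% of the wt peaks had no overlap in the ΔIkE120 list and 13.6% of the ΔIkE120 peaks had none in the wt list.

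HoxD was the cluster with called acetylation among its genes. The 9 HoxD genes lie over 96.9 kb at chr2:74668225-74765142, from Hoxd13 to Hoxd1, and each list had 2 peaks in the window. They covered 1368 bases in wt and 1249 in ΔIkE120 cells, a ratio of 0.913. With the same number of peaks taken from each list the values were 1148 and 1249 bases, a ratio of 1.09, so the direction of this small difference turned. A peak inside the span of Hoxd3 was present in both. In wt cells it was at chr2:74715642-74716789, 1148 bases with a fold enrichment of 3.22 and a −log10 q-value of 3.90. In ΔIkE120 cells it was at chr2:74715668-74716700, 1033 bases with a fold enrichment of 3.22 and a −log10 q-value of 3.12. This peak lay over the start of Hoxd3os1, a noncoding gene on the strand opposite to Hoxd3, at chr2:74716130. It was 3.65 kb in wt and 3.67 kb in ΔIkE120 cells from the start of Hoxd3 and 5.19 and 5.28 kb from the start of Hoxd4. By −log10 q-value it ranked at percentile 47.8 of the wt list and 34.8 of the ΔIkE120 list.

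The other HoxD peaks were short and each was called in 1 list alone. The wt peak was at chr2:74766927-74767146, 220 bases with a −log10 q-value of 1.32 (percentile 1.57), beyond the 3′ end of Hoxd1 and 3.95 kb from its start. The ΔIkE120 peak was at chr2:74779160-74779375, 216 bases with a −log10 q-value of 3.84 (percentile 44.0), 16.2 kb from the start of Hoxd1. With the same number of peaks taken from each list, the wt peak dropped out and the nearest wt peak to the Hoxd1 start was 46.2 kb away, against 16.2 kb in ΔIkE120 cells, so which list had the nearer peak depended on this weak call. Over the 4 windows, 2 of 3 wt peaks were overlapped in the ΔIkE120 list and 2 of 3 ΔIkE120 peaks in the wt list, where the shares over the whole lists were 74.4% and 86.4%.

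Beyond Evx2, which had no peak at its start, Lnpk and Mtx2 on either side of HoxD carried peaks of high −log10 q-value. The peak at the start of Lnpk, on the Hoxd13 side, covered 978 bases in wt with a −log10 q-value of 20.26 and 721 bases in ΔIkE120 cells with a −log10 q-value of 28.94. Nearer to this peak was the start of the noncoding gene 4930445N08Rik, under it in wt and 65 bases from it in ΔIkE120 cells. The peak over the start of Mtx2, a gene of mitochondrial protein import on the Hoxd1 side, covered 1039 bases with a −log10 q-value of 39.59 in wt and 1040 bases with a value of 34.67 in ΔIkE120 cells. It stood 60.3 and 60.4 kb from the cluster. Between the Lnpk peak and the Hoxd3os1 peak no peak was called over 136 kb in wt and 137 kb in ΔIkE120 cells, an interval with the starts of 7 listed Hox genes and of Evx2, a homeobox gene that neighbours Hoxd13.

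The distance from a Hox gene start to the nearest peak had a median of 117 kb in wt (range 3.65 to 199 kb) and 120 kb in ΔIkE120 cells (range 3.67 to 215 kb). Over all protein-coding starts the median was 3.82 and 4.62 kb, and over those with no peak at the start 57.3 and 61.7 kb. Of these starts with no peak, 37.9% in wt and 38.3% in ΔIkE120 cells lay at or beyond the median distance of the Hox genes. The clusters differed in this distance. HoxD genes had a median of 17.9 kb in both lists, HoxA genes 100 kb in wt and 99.1 kb in ΔIkE120 cells, HoxB genes 136 kb in both, and HoxC genes 158 and 186 kb (186 kb in both with lists of equal size). The genes of a cluster share their nearest peaks, so these distances are not independent of each other. Along HoxD the distance fell from Hoxd13 (47.4 kb in both lists) to Hoxd9 (17.9 kb in both) and Hoxd3 (3.65 and 3.67 kb). Along HoxA it rose from Hoxa2 to Hoxa11 (130 and 129 kb), away from the flanking peak. At Hoxa13 it fell to 119 kb in wt, where the weak peak beyond the cluster was nearest, and rose to 144 kb in ΔIkE120 cells.

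**Figure D3:**
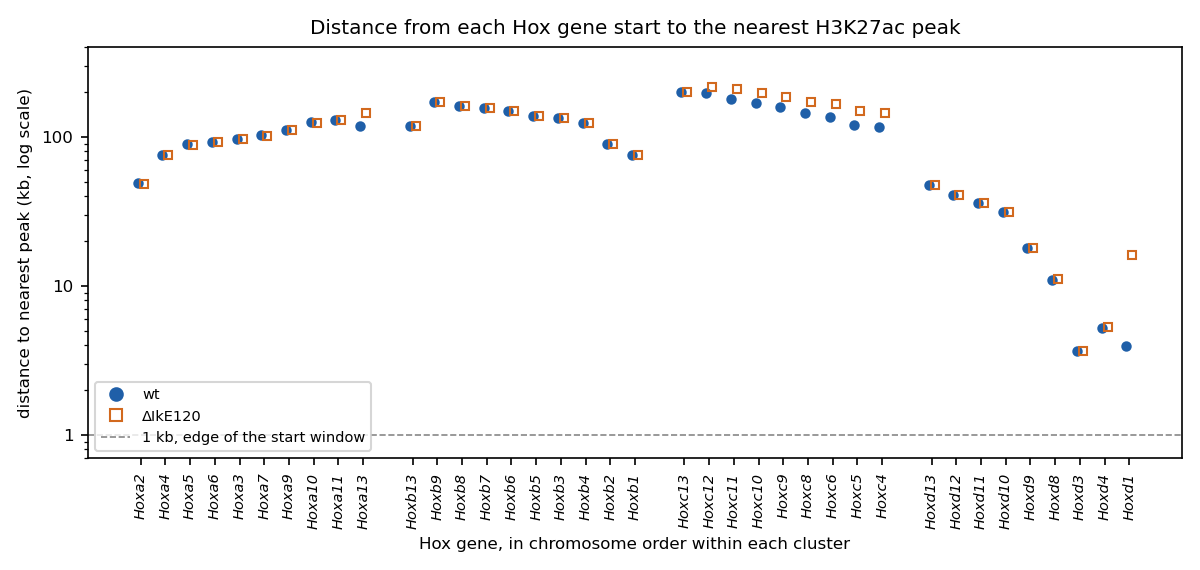
Distance in kb (log axis) from the start of each of the 38 Hox genes to the nearest H3K27ac peak, in wt (filled circles) and ΔIkE120 cells (open squares), with genes in chromosome order within each cluster. All genes lie above the dashed line at 1 kb, and the HoxD genes lie lowest, down to 3.65 kb at Hoxd3.

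The peak-free intervals were set beside all intervals between neighbouring peaks, most of which hold few gene starts. Of the 34530 intervals between neighbouring wt peaks, 117 (0.339%) held at least the 12 protein-coding starts of the HoxA or HoxB interval, and 140 (0.405%) held at least the 10 of HoxC. In the ΔIkE120 list the counts were 119 (0.398%) and 146 (0.489%) of 29878 intervals. The 10 of HoxC include Calcoco1, whose own peak borders the interval, and starts of such border genes were counted in all intervals alike. By length, at least as long as the HoxA interval were 3.81% of the wt and 2.64% of the ΔIkE120 intervals, as the HoxB interval 2.90% and 3.58%, and as the HoxC interval 2.61% and 3.05%. The HoxD genes lay in a pair of intervals. The one on the Hoxd13 side, with 9 protein-coding starts including that of Lnpk at its bordering peak, was reached in starts by 0.469% and 0.572% of intervals and in length by 7.25% and 8.78%. The one on the Hoxd1 side, with 2 starts, was reached in starts by 6.13% and 7.45% and in length by 20.4% and 19.4%. In wt this interval ended at the weak peak of 220 bases that dropped out with lists of equal size. The wt interval would then be longer, and its shares were not counted again. When the chromosomes were divided into tiles of 200 kb, 322 tiles held at least 9 protein-coding starts, the number of listed genes in the smallest clusters. Of these gene-dense tiles 17.7% had no covered base in wt and 18.0% had none in ΔIkE120 cells, and the median covered length was 7990 and 7200 bases.

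Of 27 other genes with a placed start in the windows, 1, Hoxd3os1, had a peak at the start, in both lists, and 11 further genes had no strand and were not scored. Of the 27, 26 were not protein-coding. Over all 14604 placed starts of genes that are not protein-coding, 13.3% had a peak in wt and 12.4% in ΔIkE120 cells. The start of Hottip, a noncoding gene beside Hoxa13, had none. Of 15 noncoding genes of the clusters that had been listed, 9 could be placed. Hotair, Hotairm1, Hoxaas2, Hoxaas3, Hoxb5os and Haglr had no strand in the sources used, and their starts were not scored. No peak of either list lay within 1 kb of either end of these genes.

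The microRNA genes of the clusters lie at fixed places among the Hox genes. Mir10a stands beside Hoxb4, Mir10b inside the span of Hoxd4, and the miR-196 genes beside the group 9 genes of 3 clusters. None of these genes had a covered base within 1 kb. Mir10b, the closest, was 9.28 kb from a peak in wt and 9.37 kb in ΔIkE120 cells, and Mir10a was 124 kb away in both. Mir196b was 114 and 113 kb from a peak, Mir196a-1 176 kb in both lists, and Mir196a-2 161 and 189 kb. Mir615, in HoxC, also had no covered base within 1 kb, with its mature sequences 120 and 148 kb from a peak. The mature sequences are shown from RefSeq (GRCm38.p6) with the seed, bases 2 to 8, in capitals, because members of a family in different clusters share it. The first pair shares the seed ACCCUGU and the second pair AGGUAGU, and miR-196 is known to cut the mRNA of Hoxb8.
miR-10a-5p: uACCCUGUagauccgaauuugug
miR-10b-5p: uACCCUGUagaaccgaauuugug
miR-196a-5p: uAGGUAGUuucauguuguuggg
miR-196b-5p: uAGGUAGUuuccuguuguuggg

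Promoter sequences were taken from RefSeq (GRCm38.p6), from 250 bases before to 50 after a gene start. Of the 38 Hox genes, 22 (57.9%) had an entry, 24 entries in all, and no entry had a base under a peak in either list. The share over all promoters was not counted. Among the 22508 promoters with at least 4 CG dinucleotides it was 44.5% in wt and 44.1% in ΔIkE120 cells. Because fewer genes than needed had a sequence, a check of base composition over the Hox genes was void, and single promoters are described. The promoter of Hoxd3os1 is shown because it lay entirely inside the HoxD peak of both lists. The promoters of its neighbours Hoxd3 and Hoxd4 and of 1 gene from each other cluster are shown beside it as promoters with no peak. Each reads 5′ to 3′ on the strand of its gene, with CG dinucleotides in capitals. They are at chr2:74716081-74716380 (minus strand, Hoxd3os1), chr2:74711743-74712042 (plus, Hoxd3), chr2:74721728-74722027 (plus, Hoxd4), chr6:52227321-52227620 (minus, Hoxa9), chr11:96318017-96318316 (plus, Hoxb4) and chr15:103034145-103034444 (plus, Hoxc4, a start inside the span of the gene).
Hoxd3os1: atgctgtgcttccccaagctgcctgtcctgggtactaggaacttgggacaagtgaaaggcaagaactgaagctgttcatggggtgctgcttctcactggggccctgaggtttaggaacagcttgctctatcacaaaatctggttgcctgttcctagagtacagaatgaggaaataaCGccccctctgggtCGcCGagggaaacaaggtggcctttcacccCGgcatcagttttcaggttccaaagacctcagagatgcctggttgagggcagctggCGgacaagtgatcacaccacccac
Hoxd3: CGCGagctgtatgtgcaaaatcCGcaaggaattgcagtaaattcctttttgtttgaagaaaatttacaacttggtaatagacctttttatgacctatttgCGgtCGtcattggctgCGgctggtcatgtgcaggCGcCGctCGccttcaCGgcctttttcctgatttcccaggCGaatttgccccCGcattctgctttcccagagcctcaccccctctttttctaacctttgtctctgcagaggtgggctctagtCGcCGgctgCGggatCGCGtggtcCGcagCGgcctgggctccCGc
Hoxd4: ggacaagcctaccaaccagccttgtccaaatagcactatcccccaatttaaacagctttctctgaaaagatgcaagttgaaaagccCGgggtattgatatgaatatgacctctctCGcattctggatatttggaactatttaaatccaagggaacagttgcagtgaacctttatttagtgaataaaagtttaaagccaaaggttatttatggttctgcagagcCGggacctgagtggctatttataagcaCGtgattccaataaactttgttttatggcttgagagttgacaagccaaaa
Hoxa9: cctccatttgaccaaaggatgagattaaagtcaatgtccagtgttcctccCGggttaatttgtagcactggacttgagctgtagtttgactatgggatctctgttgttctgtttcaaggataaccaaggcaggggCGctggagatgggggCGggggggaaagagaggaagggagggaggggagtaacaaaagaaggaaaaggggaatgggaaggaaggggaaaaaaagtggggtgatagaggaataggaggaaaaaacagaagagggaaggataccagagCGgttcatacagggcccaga
Hoxb4: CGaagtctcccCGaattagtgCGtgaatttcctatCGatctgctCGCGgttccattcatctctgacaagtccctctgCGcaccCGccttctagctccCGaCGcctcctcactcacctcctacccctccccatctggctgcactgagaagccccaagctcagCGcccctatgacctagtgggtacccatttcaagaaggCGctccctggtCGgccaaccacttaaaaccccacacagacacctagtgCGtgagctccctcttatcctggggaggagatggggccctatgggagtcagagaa
Hoxc4: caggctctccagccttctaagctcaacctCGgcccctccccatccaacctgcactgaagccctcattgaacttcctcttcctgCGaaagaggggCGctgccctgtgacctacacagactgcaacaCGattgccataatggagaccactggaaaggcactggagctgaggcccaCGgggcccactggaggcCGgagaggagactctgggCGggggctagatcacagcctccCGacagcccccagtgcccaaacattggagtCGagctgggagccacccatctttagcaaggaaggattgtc

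The acetylated promoter was not the one with the most CG dinucleotides. Hoxd3os1 had 5 of them at a GC content of 54.0%, and 62.3% of all 32619 promoters had at least as many. Of the promoters with at least 5, 48.5% had a base under a peak in wt and 48.1% in ΔIkE120 cells. Hoxd3 had 20 at the same GC content, a number reached by 26.7% of promoters. Of the 8699 promoters with at least 20, 73.5% had a base under a peak in wt and 73.6% in ΔIkE120 cells, while the Hoxd3 promoter had none in either. Hoxb4 had 14 (36.5% of promoters had at least as many), and 69.1% of the promoters with at least 14 had a base under a peak in wt and 69.1% in ΔIkE120 cells. Hoxc4 had 9, and Hoxa9 and Hoxd4 had 4 each. The share under a peak was 61.3% in wt and 61.1% in ΔIkE120 cells for promoters with at least 9. For those with at least 4 it was 44.5% and 44.1%. Searched on both strands were the CCAAT box (CCAAT), the GC box of Sp factors (GGGCGG), the TATA box (TATAAA), the E-box (CACGTG), the Runx motif (TGTGGT), the Ets motif (CCGGAA), the Gata motif (AGATAA) and the motif of Hox and Pbx proteins together (TGATTNAT). The Hoxd3os1 and Hoxb4 promoters held none of them. Hoxd4 held CCAAT at 2 places, TATAAA at 1 and CACGTG at 1, Hoxd3 held CCAAT at 1, Hoxa9 GGGCGG at 1, and Hoxc4 CCAAT and GGGCGG at 1 each. Of all promoters in the table, 37.6% held CCAAT, 35.9% GGGCGG, 13.7% TATAAA, 7.20% CACGTG, 16.6% TGTGGT, 15.0% CCGGAA, 11.2% AGATAA and 3.24% TGATTNAT.

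Genes whose products act on or with the Hox genes were counted in the same way, beside the 45.0% of all protein-coding starts with a peak in wt and 44.4% in ΔIkE120 cells. Of 8 genes for the TALE homeodomain proteins that bind DNA together with Hox proteins, 6 had a peak at the start in each list. Pbx3 had its whole window of 2001 bases covered in both, and Pknox1 1563 bases in wt and 1546 in ΔIkE120 cells. Meis1 and Meis2 had no peak at the start in either list. Meis1 is the usual partner of Hoxa9 in leukaemia, and neither gene had a called peak at its start here.

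Of 12 genes for the MLL complex and Dot1l, which methylate histone H3 at active Hox genes, 9 had a peak at the start in each list. Kmt2a, the MLL gene, had 1652 bases covered in wt and 1635 in ΔIkE120 cells. Kmt2d, Ash2l and Dpy30 had none. Of 19 Polycomb genes, 18 had a peak at the start in each list. Ezh2, the methyltransferase of H3K27, had 1839 bases covered in wt and 1738 in ΔIkE120 cells, and its partner Suz12 had 1763 and 1777. Cbx7 had no peak at the start. Of 4 genes that remove methylation from H3K27 or acetylate it, the acetyltransferases Ep300 (1474 and 1398 bases) and Crebbp (1418 and 1503) had a peak at the start, and the demethylases Kdm6a and Kdm6b had none at the 5′ end used. This count, 2 of 4 in each list, was near the share over all starts.

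A further list held other developmental homeobox genes, among them Evx1 and Evx2, which lie in the peak-free intervals of HoxA and HoxD. Of the 27 genes, such as Otx2, Pdx1 and Cdx2, 1 had a peak at the start in each list (3.70%). This was Dlx1, where a peak of 1481 bases at chr2:71528753-71530233 in wt and chr2:71528732-71530212 in ΔIkE120 cells overlapped the start window over 361 and 382 bases. Its −log10 q-value was 14.06 in wt and 17.09 in ΔIkE120 cells, above that of every peak in the Hox windows. Evx1 and Evx2 had no peak at the start. The median distance from these 27 starts to the nearest peak was 58.0 kb in wt and 69.8 kb in ΔIkE120 cells.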

How the data were processed

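H3K27ac ChIP-seq peak lists of wt and ΔIkE120 P5424 cells were used, 1 library and 1 list per genotype. The submitters' processing notes name Bowtie2 2.3.4.3, Bowtie 1.0.0, deepTools 3.2.1, MACS2 2.1.1 and the build GRCm38 without giving their roles. For each peak the authors deposited a score, a fold enrichment (a ratio over background) and the −log10 of a p-value and of a q-value. The lists give no counts of reads, so depth and its precision are unknown. The 4C-seq files of the series were not used here.

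Gene positions were taken from RefSeq (GRCm38.p6). The start of a gene was its 5′ end, with the strand from the RefSeq promoter table for 22 Hox genes and from GENCODE M1 by symbol for 16. Genes listed in the opening 3 Mb of a chromosome, where neither list had a peak, were left out. A start had a peak where at least 1 base of a peak lay within 1 kb of it, and peaks of the lists overlapped where they shared at least 1 base. Counts, covered bases and distances were computed with Python 3.11.15, numpy 2.4.6 and pandas 2.3.3, and figures with matplotlib 3.10.9; binomial intervals for the alternatives came from scipy 1.17.1. The interval code was tested on simulated data.

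No test was made, since each genotype had 1 library. The members and lists were chosen with earlier results of these data known. Genes were named where a peak stood at the start in either list or in 1 list alone, together with the 3 peaks of highest −log10 q-value per cluster window and list, the highest without overlap in the other list, other genes of the windows with a peak at the start, and the fixed lists, of which 2 genes are not reported here. Bordering genes and the Hox genes given as examples were chosen after their values were seen. Alternatives were the peak threshold, equal list sizes, the flank, the start window, the overlap required and the start used.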

Additional observations from a re-analysis of the deposited data

How the results depend on the processing

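The count of Hox gene starts with a peak was 0 in both lists with start windows of 500 bp and 2.5 kb, with at least 200 bases of the window covered, with the stricter peak threshold, with equal list sizes and with RefSeq promoter table starts added. With a window of 5 kb it was 2 in wt (Hoxd3 and Hoxd1) and 1 in ΔIkE120 cells (Hoxd3). The share of all protein-coding starts at 5 kb is not given. Their median distance to a peak was below 5 kb, at 3.82 kb in wt and 4.62 kb in ΔIkE120 cells. The promoter table starts, the 5 kb window and equal list sizes for distances and peak-free intervals were chosen after seeing the data. When peaks under their list's median −log10 q-value were dropped, covered bases were 0 in HoxA and 0 in HoxD in both lists, since each peak there was below that value, and neither a ratio nor an overlap could be computed. With no flank, HoxA had 0 covered bases in both lists, and the single HoxD peak left in each list was overlapped in the other, 100% of wt and 100% of ΔIkE120 peaks, from 1 peak each. With equal list sizes the weakest HoxD peak of wt dropped out and the overlapped share of wt peaks was 100%, 2 of 2, while the HoxD ratio of ΔIkE120 to wt covered bases went from 0.913 to 1.09. The nearest wt peak to the Hoxd1 start then moved from 3.95 to 46.2 kb, and the HoxC interval of wt from 413 to 441 kb. The HoxA interval stayed at 264 kb in wt and 523 kb in ΔIkE120 cells. When 50% of a peak had to be overlapped, the share was 66.7% of wt peaks and 33.3% of ΔIkE120 peaks (1 of 3), against 66.7% of each. With a flank of 100 kb the borders of the clusters came in: HoxB covered 6171 bases in wt and 6004 in ΔIkE120 cells, HoxC 845 in wt and 0 in ΔIkE120 cells, and HoxD 3385 and 3010. The covered length outside the genes therefore depends on the flank.

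The lists hold peaks past a threshold only, from 1 library per genotype of unknown depth, so weak acetylation at Hox genes and a difference in peak height between the genotypes could not be measured. The deletion, the clone and the library cannot be told apart. The small peaks called in 1 list alone have no replicate check. Starts are RefSeq 5′ ends, so a promoter inside a gene is seen only where the promoter table holds it.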
